A study of Homo sapiens with 6 samples.

Results

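The genes described here are 41 genes of glycolysis and of the response to low oxygen, taken from a list of gene symbols and found once each among the 53826 entries of every library. They fall into 26 genes of glucose uptake, glycolysis and lactate metabolism and 15 genes of the hypoxia-inducible factor (HIF) response. RNA was sequenced from the human lines PK-1 and Panc-1, both long established from pancreatic ductal adenocarcinoma (PDAC), which were left as control or exposed over 24 h to an antagonist of retinoic acid receptor γ (RARγ), either RARγi-1 (LY2955303) or RARγi-2 (MM11253), compounds that differ in structure. Each of the 6 conditions has 1 library, so each inhibitor is compared with the control of its own line and the design gives 4 comparisons without replicates. Neither the dose nor the vehicle of the RNA-seq cultures is stated. The titles name RARγi-2 for its 2 libraries while a treatment entry of the same libraries reads RARγi-1, and the titles were followed. No genotype beyond the name of the line is given, and each line stands for 1 tumor. The study asked how blocking RARγ changes gene expression in PDAC cells. The epithelial keratin KRT8 was at 5967 TPM (transcript abundance scaled to a fixed total in every library) in control PK-1 cells and 3530 TPM in control Panc-1 cells, and KRT18 and KRT19 were abundant in both as well. The ductal keratin KRT7 was at 5663 TPM in PK-1 but at 4.19 TPM in Panc-1, and the epithelial adhesion gene EPCAM at 578 TPM against 13.4 TPM in the control libraries. CDH1, the epithelial cadherin, was at 170.1 TPM in PK-1 and at the floor in Panc-1 (the lowest value of the tables, which stands for any level up to 1 TPM), where the mesenchymal gene VIM reached 6291 TPM against 41.7 TPM in PK-1. In Panc-1, KRT8 was at 656 TPM after RARγi-1 and 566 TPM after RARγi-2. Of 8 blood, endothelial and fibroblast markers, 7 were at the floor in all 6 libraries and CD14 reached 1.001 TPM in 1.

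Glycolysis splits glucose into pyruvate in the cytosol, and lactate dehydrogenase then turns pyruvate into lactate, which leaves the cell through monocarboxylate transporters. HIF transcription factors pair an oxygen-sensitive α subunit with ARNT, and in the presence of oxygen prolyl hydroxylases mark the α subunit for destruction through VHL. When oxygen falls, or the hydroxylases are inhibited, HIF binds short hypoxia response elements with the core ACGTG or GCGTG and raises many glycolytic genes together with VEGFA, CA9 and other targets. PDAC is known as a poorly perfused tumor with high glycolytic gene expression. Several of the same genes, such as VEGFA, are also known targets of other stress-response factors.

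Transcripts of the pathway did not move together. The HIF targets NDRG1, VEGFA and P4HA2 and the glucose transporter SLC2A1 were higher in every treated library than in its control, while most enzymes between glucose 6-phosphate and lactate were lower. Fold changes are on the log2 scale, for the treated library relative to its control after adding 1 TPM to each, and the words rose and fell are kept for differences past 2-fold. Where 3 TPM values are listed for a line they are control, RARγi-1 and RARγi-2, and a pair of fold changes gives RARγi-1 before RARγi-2. An entry counts as expressed in a line when at least 1 of its 3 libraries holds at least 5 TPM. With 1 library per condition no p-value was computed, and TPM keeps no read depth, so no counting interval is given. As the nearest measure of variation, the robust standard deviation per library, taken from the differences between both treated libraries of a line, was 0.29 (log2) for PK-1 and 0.23 for Panc-1. It also holds real differences between the inhibitors, and with it in both libraries of a comparison a fold change would vary by 0.41 for PK-1 and by 0.32 for Panc-1, called the fold change spread here. In RNA of a whole culture, a lower level per cell and fewer cells with the transcript cannot be told apart. Both inhibitors of a line share 1 control library, so a deviation of that library would move both comparisons.

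To show the sequence around the start of transcription, promoters from 250 bases before to 50 bases after the RefSeq start (GRCh38.p14) were searched on both strands for ACGTG and GCGTG. At least 1 of these cores was found in 48.4% of 27305 promoters and in 25 of the 36 members that have a promoter in the table. The promoters of VEGFA, NDRG1, SLC2A3, SLC16A1 and BNIP3L are not among them. The promoters of 4 members that rose or fell with both inhibitors of a line are printed 5′ to 3′ on the strand of the gene: HK2, at chr2:74833877-74834176 on the + strand, rose with both inhibitors in Panc-1. ENO2, at chr12:6914330-6914629 on the + strand, rose with both in PK-1. P4HA2, at chr5:132227042-132227341 on the - strand, rose in all 4 comparisons. LDHA, at chr11:18394313-18394612 on the + strand, fell in 3 comparisons. Capitals mark a match on either strand, with overlapping matches run together.
HK2: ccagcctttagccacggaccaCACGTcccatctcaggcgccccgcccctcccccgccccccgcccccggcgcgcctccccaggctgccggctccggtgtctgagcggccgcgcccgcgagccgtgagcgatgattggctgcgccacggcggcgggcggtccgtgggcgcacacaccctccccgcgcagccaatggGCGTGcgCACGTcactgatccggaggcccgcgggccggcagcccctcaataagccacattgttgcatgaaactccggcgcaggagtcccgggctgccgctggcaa
ENO2: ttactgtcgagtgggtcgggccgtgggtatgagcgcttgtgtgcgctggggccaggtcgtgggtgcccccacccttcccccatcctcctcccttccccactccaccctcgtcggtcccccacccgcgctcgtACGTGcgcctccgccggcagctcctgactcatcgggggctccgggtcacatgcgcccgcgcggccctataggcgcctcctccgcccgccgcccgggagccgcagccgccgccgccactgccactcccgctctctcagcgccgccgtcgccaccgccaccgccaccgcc
LDHA: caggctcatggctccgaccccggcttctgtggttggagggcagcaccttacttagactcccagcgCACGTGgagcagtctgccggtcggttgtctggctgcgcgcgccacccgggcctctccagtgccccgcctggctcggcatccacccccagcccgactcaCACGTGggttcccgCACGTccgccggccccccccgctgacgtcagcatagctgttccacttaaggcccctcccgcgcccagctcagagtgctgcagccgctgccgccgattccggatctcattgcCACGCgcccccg
P4HA2: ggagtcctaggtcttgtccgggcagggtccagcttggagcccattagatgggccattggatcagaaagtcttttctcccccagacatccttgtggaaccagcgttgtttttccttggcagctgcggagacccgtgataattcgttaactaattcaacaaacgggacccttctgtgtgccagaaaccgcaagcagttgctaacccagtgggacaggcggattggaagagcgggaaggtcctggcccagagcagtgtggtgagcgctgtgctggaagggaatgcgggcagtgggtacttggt

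LDHA, a transcript that fell, held 6 matches in these 300 bases, HK2 held 3 and ENO2 held 1, while P4HA2 held 0. CACGTG reads the same on both strands and was counted once on each, so LDHA has fewer separate sites than matches. Of the 10 members that rose in at least 1 comparison, 7 had a promoter in the table and 4 of these held a match (SLC2A1, HK2, ENO2 and ANKRD37). Of the 12 that fell in at least 1 comparison, all 12 had a promoter and 7 held a match (GPI, ALDOC, PKM, LDHA, LDHB, PFKFB3 and ADM). ALDOC is among these 12 although it passed 2-fold downward only in Panc-1, where it was not expressed by the 5 TPM rule. The core was thus found among rising and falling members alike. A match is only a description of these letters, and its absence from a window of this length says nothing of elements elsewhere. The core of the amino acid response element bound by ATF4 and C/EBP proteins, TGATGNAA, was found in 3.67% of all promoters and in 1 of the 36 member promoters, that of HK1.

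In PK-1, 38 members were expressed. Of these, 6 rose and 1 fell with RARγi-1, where 10.7% of all 11268 expressed entries rose and 5.67% fell. With RARγi-2, 8 rose and 7 fell, beside 13.9% and 14.6% of all entries. In Panc-1, 35 members were expressed, and 5 rose and 3 fell with RARγi-1, where 8.58% of all 11056 expressed entries rose and 7.11% fell. With RARγi-2, 6 rose and 9 fell, beside 9.88% and 13.0% of all entries. As shares of the expressed members, the rising ones made up 15.8% and 21.1% in PK-1 cells, and 14.3% and 17.1% in Panc-1 cells, and the falling ones 2.63%, 18.4%, 8.57% and 25.7%, for RARγi-1 and RARγi-2 in turn. Expressed in both lines were 34 members, of which 3 rose in all 4 comparisons (VEGFA, NDRG1 and P4HA2) and 0 fell in all 4, while 3.29% of the 9912 entries expressed in both lines rose and 2.64% fell in all 4. SLC2A3, EGLN3 and ANKRD37 in PK-1, and PDK1 and ANKRD37 in Panc-1, reached 5 TPM only in treated libraries. Without them 4, 5, 5 and 5 members rose, in the order PK-1 RARγi-1, PK-1 RARγi-2, Panc-1 RARγi-1 and Panc-1 RARγi-2. Not expressed by this rule were PDK3, CA9 and BNIP3 in PK-1 and SLC2A3, ALDOC, PDK3, PFKFB4, EGLN3 and CA9 in Panc-1.

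**Figure D1:**
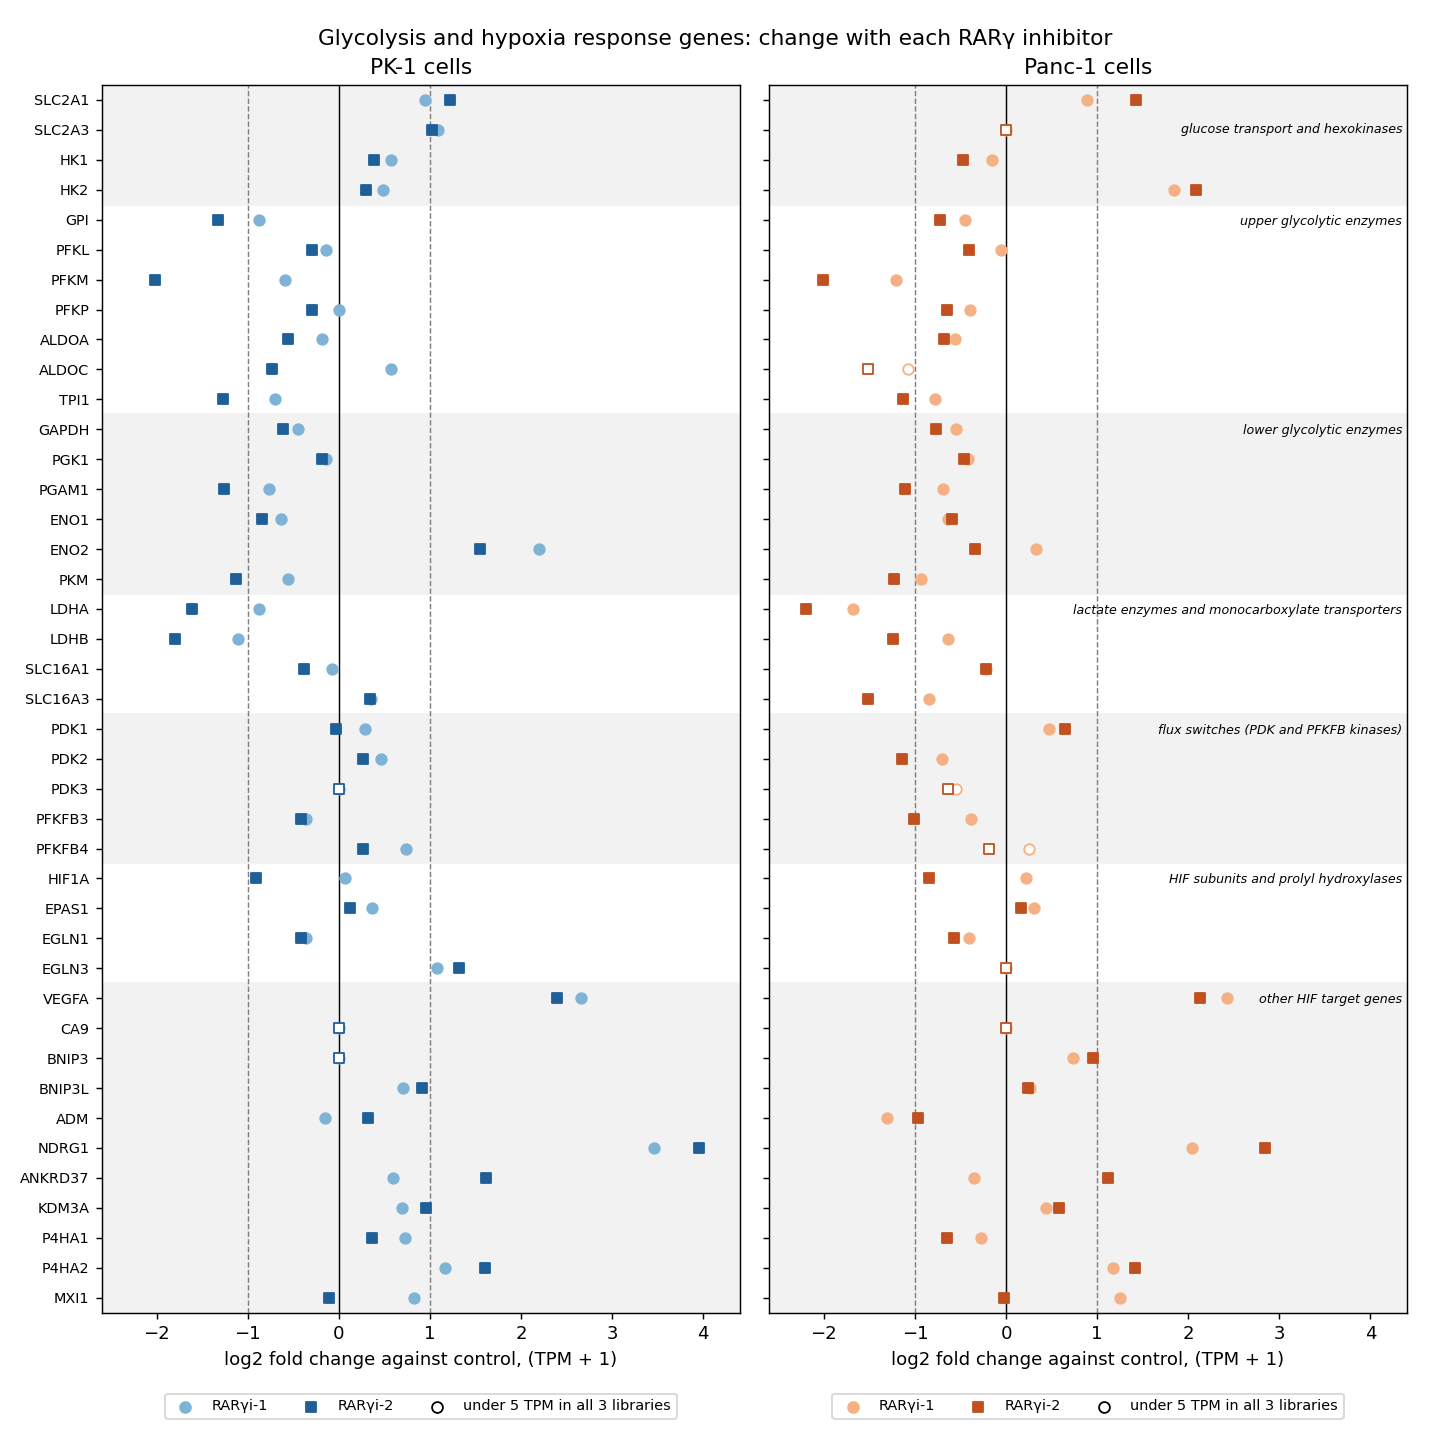
Log2 fold change of (TPM + 1) against the control of the same line (x axis) for each of the 41 genes (y axis), grouped by role with alternating shading; circles are RARγi-1, squares RARγi-2, open symbols genes under 5 TPM in all 3 libraries of the line, and dashed lines mark 2-fold. NDRG1, VEGFA and P4HA2 lie right of the 2-fold line in all 4 comparisons, and most enzymes from GPI to LDHB lie left of 0.

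The glycolysis genes and the HIF response genes differed in their medians. These groups were drawn by role and do not part HIF targets from other genes. HIF is known to raise many glycolytic genes as well. Over the expressed glycolysis genes the median log2 fold change was -0.14 (RARγi-1) and -0.39 (RARγi-2) for PK-1 cells, and -0.50 and -0.71 for Panc-1 cells. Over the expressed HIF response genes it was 0.71 and 0.91 in PK-1 cells, and 0.31 and 0.24 in Panc-1 cells. Over only the HIF response genes with 5 TPM in the control library, a count chosen after seeing the data, the PK-1 RARγi-2 median was 0.36. The median of all expressed entries was 0.15 and -0.01 in PK-1 cells, and 0.09 and -0.03 in Panc-1 cells, in the same order. Rescaling the libraries by median ratios moved PK-1 RARγi-1 by -0.12 (log2) and gave medians of -0.26 for the glycolysis genes and 0.59 for the HIF response genes there. Relative to this shift the SLC2A3 and EGLN3 differences in PK-1 RARγi-1 were 0.98 and 0.98, just under 2-fold.

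**Figure D2:**
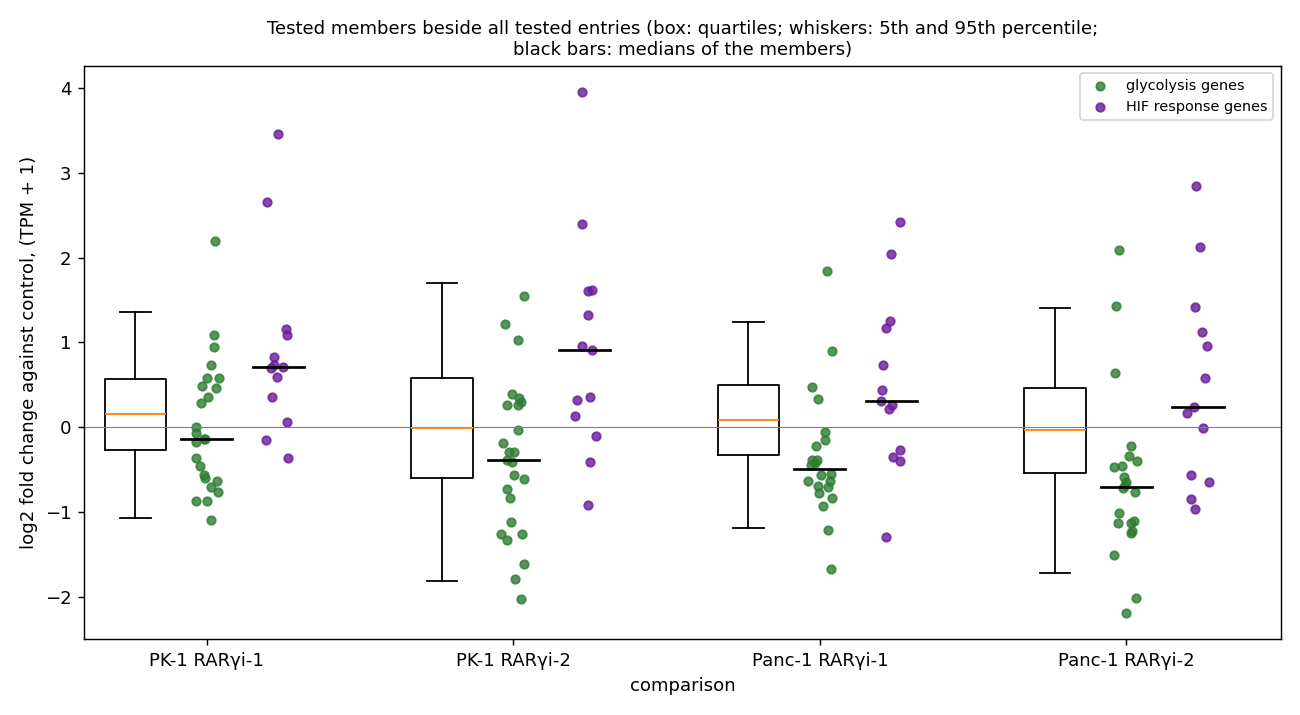
Log2 fold change of (TPM + 1) against control (y axis) in the 4 comparisons (x axis); boxes give the quartiles and whiskers the 5th and 95th percentile of all expressed entries, points are expressed members (green, glycolysis; purple, HIF response) and black bars their medians. The green median lies below the box's median line and the purple median above it in each comparison.

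SLC2A1 (GLUT1), the basal glucose transporter and a known HIF target, was at 93.0 TPM in control PK-1 cells, 181 TPM after RARγi-1 and 218 TPM after RARγi-2. In Panc-1 it was at 24.3, 46.0 and 67.2 TPM in the same order. It rose with RARγi-2 in both lines (log2 fold change 1.22 and 1.43) and stayed just under 2-fold with RARγi-1 (0.95 and 0.89), all past the fold change spread. SLC2A3 (GLUT3), a high-affinity glucose transporter, was at 3.63, 8.82 and 8.40 TPM in PK-1 and at the floor in each Panc-1 library. It rose with both inhibitors in PK-1 (1.08 and 1.02), though from a control level under the minimum, and with a pseudocount of 5 TPM both values were under 2-fold (0.68 and 0.64).

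Hexokinases trap glucose by phosphorylation, HK1 as the widely expressed form and HK2 as the inducible form that many tumors use. HK2 was at 50.8 TPM in control PK-1 cells, 71.5 TPM after RARγi-1 and 62.5 TPM after RARγi-2, which gave fold changes of 0.48 and 0.29. In Panc-1 the control level was only 8.91 TPM, with 34.6 TPM after RARγi-1 and 41.2 TPM after RARγi-2, and HK2 rose in both (1.85 and 2.09). The treated Panc-1 libraries thus came nearer to the PK-1 levels than their control did. HK1 stayed within 2-fold in all 4 comparisons, with fold changes of 0.58 and 0.38 in PK-1 cells, and -0.15 and -0.48 in Panc-1 cells. The share of HK2 in the summed TPM of HK1 and HK2 was 35.1% in control PK-1 cells and 33.8% and 33.7% in the treated ones. In Panc-1 it was 8.25% in the control, 28.0% with RARγi-1 and 36.7% with RARγi-2.

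The enzymes from glucose-6-phosphate isomerase to pyruvate kinase are represented by 13 members, of which 10 were lower than control in all 4 comparisons. Their median log2 fold change was -0.45 and -0.73 in PK-1 cells, and -0.56 and -0.71 in Panc-1 cells. GPI, which turns glucose 6-phosphate into fructose 6-phosphate, was at 270.1, 147 and 107 TPM in PK-1 and at 231, 169.5 and 139.7 TPM in Panc-1. It fell in PK-1 with RARγi-2 (-1.33), and the other fold changes were -0.88 in PK-1 with RARγi-1 and -0.45 and -0.72 in Panc-1. Phosphofructokinase commits sugar to glycolysis and is built from liver, muscle and platelet subunits. The muscle subunit PFKM was at 57.9, 38.0 and 13.5 TPM in PK-1 and at 44.1, 18.5 and 10.2 TPM in Panc-1. It fell in 3 of the 4 comparisons (-2.02 in PK-1 with RARγi-2, -1.21 and -2.01 in Panc-1), and PK-1 with RARγi-1 gave -0.60. Over the 4 comparisons its mean was -1.46, with 334 of the 9912 entries expressed in both lines lower. The liver subunit PFKL (from -0.40 to -0.05) and the platelet subunit PFKP (from -0.65 to 0.01) stayed within 2-fold, and PFKP made up between 75.1% and 84.4% of phosphofructokinase TPM. The sign of the PFKP value in PK-1 with RARγi-1 turned to -0.11 after rescaling. PFKM made up 13.9% of phosphofructokinase TPM in control PK-1 cells, 9.65% with RARγi-1 and 4.42% with RARγi-2. In Panc-1 its share was 11.7%, 6.55% and 4.46%.

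Aldolase and triosephosphate isomerase then give the triose phosphates. ALDOA, the main aldolase, stayed within 2-fold (between -0.69 and -0.18). ALDOC, the minor brain-type form, was at 14.2, 21.6 and 8.13 TPM in PK-1, with fold changes of 0.58 and -0.73. Panc-1 cells had it at 4.73, 1.72 and 1 TPM, the last being the floor, so that the value of -1.52 for RARγi-2 is a limit and the fall may have been larger. With RARγi-1 it was -1.08. No Panc-1 library reached the minimum, and with a pseudocount of 5 TPM both values were under 2-fold (-0.54 and -0.70). TPI1, which interconverts the trioses, was at 1299.6, 798.5 and 539 TPM in PK-1 and at 837, 487 and 383 TPM in Panc-1. TPI1 fell with RARγi-2 in both lines (-1.27 and -1.13), and its values with RARγi-1 were -0.70 and -0.78.

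GAPDH, often used as a reference transcript, was the most abundant member in both lines. Its level was 8194, 5982 and 5335 TPM in PK-1 and 4237, 2885 and 2481 TPM in Panc-1, with all fold changes between -0.77 and -0.45. These values stayed within 2-fold and lay past the fold change spread in all 4 comparisons. PGK1, the first ATP-producing enzyme, was among the least changed (between -0.46 and -0.14). PGAM1, the phosphoglycerate mutase, was at 1099, 644 and 457 TPM in PK-1 and at 879.8, 544 and 407 TPM in Panc-1. It fell with RARγi-2 in both lines (-1.27 and -1.11) and gave -0.77 and -0.69 with RARγi-1. ENO1, the main enolase, stayed within 2-fold (between -0.84 and -0.59). PKM, the pyruvate kinase of most tissues and tumors, was at 1959, 1326 and 898 TPM in PK-1 and at 1455, 764 and 619 TPM in Panc-1. PKM fell with RARγi-2 in both lines (-1.12 and -1.23). Its values with RARγi-1 were -0.56 and -0.93.

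ENO2, the neuron-type enolase and a known HIF target, went the other way in PK-1. It was at 8.99 TPM in the PK-1 control, 44.7 TPM after RARγi-1 and 28.3 TPM after RARγi-2, and it rose in both (2.19 and 1.55). In Panc-1 the control was already at 29.6 TPM and the treated libraries at 37.5 and 23.2 TPM (0.33 and -0.34). ENO2 was the only member of the 13 past 2-fold upward, and it made up 3.65% or less of the enolase TPM in each library.

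**Figure D3:**
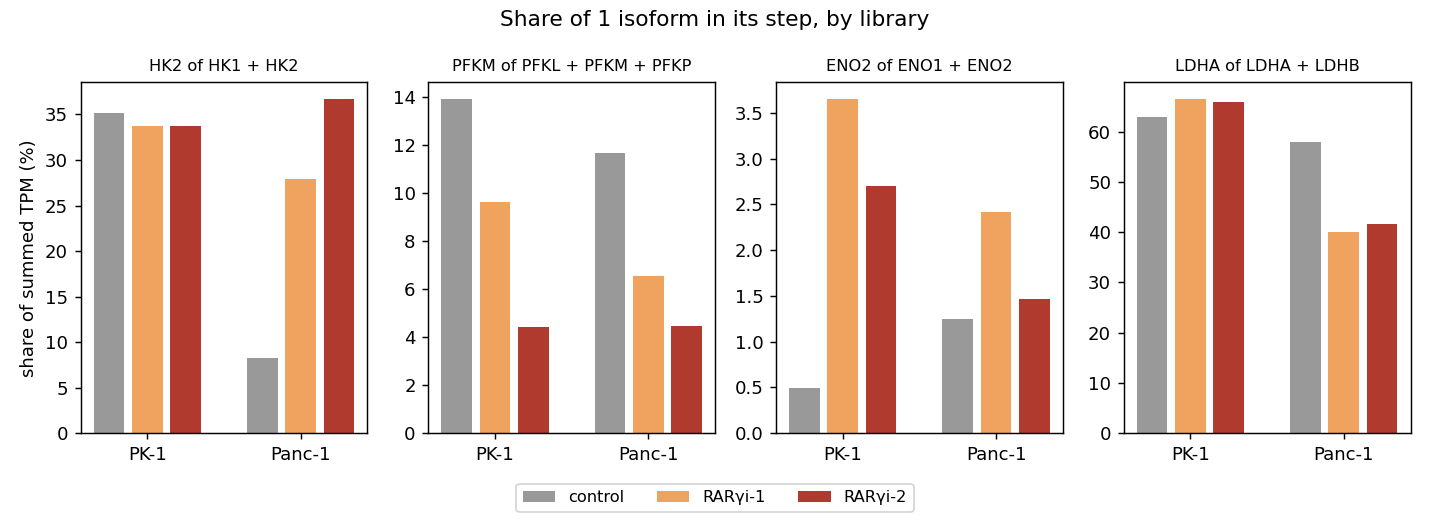
Share (%) of the summed TPM of a step that 1 isoform made up, in each library: HK2 of the hexokinases, PFKM of the phosphofructokinase subunits, ENO2 of the enolases and LDHA of the lactate dehydrogenase subunits, each panel with its own y axis from 0. The HK2 share stood at 8.25% in the Panc-1 control and between 28.0% and 36.7% in every other library, and the PFKM share was lowest with RARγi-2 in both lines.

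With its subunits summed, lactate dehydrogenase had the lowest fold change of any step in each of the 4 comparisons. LDHA, the subunit that favors lactate, was at 1279 TPM in control PK-1 cells, 697 TPM after RARγi-1 and 417 TPM after RARγi-2. In Panc-1 it was at 1127, 352 and 245 TPM. LDHA fell in Panc-1 with both inhibitors (-1.68 and -2.20) and in PK-1 with RARγi-2 (-1.61), and its value in PK-1 with RARγi-1 was -0.87. Its mean over the 4 comparisons was -1.59, with 273 of the 9912 entries expressed in both lines lower. LDHB, the subunit of oxidative tissues, was at 756, 351.5 and 216.5 TPM in PK-1 and at 819, 528 and 345 TPM in Panc-1. LDHB fell in PK-1 with both inhibitors (-1.10 and -1.80) and in Panc-1 with RARγi-2 (-1.25), with -0.63 in Panc-1 with RARγi-1. The balance of the subunits differed between the lines: LDHA made up 62.9%, 66.5% and 65.8% of their summed TPM in PK-1, but 57.9%, 40.0% and 41.5% in Panc-1.

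Lactate leaves through SLC16A3 (MCT4), the exporter of glycolytic cells, and SLC16A1 (MCT1), which carries lactate both ways. SLC16A3 was at 281, 358 and 357 TPM in PK-1, with a fold change of 0.35 for each inhibitor. Panc-1 cells had it at 423.5 TPM in the control, 236 TPM after RARγi-1 and 148 TPM after RARγi-2, and it fell with RARγi-2 (-1.51, with -0.84 for RARγi-1). The treated libraries were thus above control in PK-1 and below it in Panc-1. SLC16A1 stayed within 2-fold (between -0.39 and -0.07).

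Summed over the 15 enzymes from GPI to PKM and lactate dehydrogenase, these transcripts made up 1.83% of all TPM in control PK-1 cells, 1.26% with RARγi-1 and 1.02% with RARγi-2. In Panc-1 the shares were 1.41%, 0.878% and 0.757%. GAPDH alone held between 44.8% and 52.2% of this sum in PK-1 and between 30.1% and 32.9% in Panc-1. The sum was lower in every treated library than in its control. Added up by step, glucose uptake was the only step above 2-fold, at 1.22 in PK-1 cells and 1.40 in Panc-1 cells with RARγi-2 (0.96 and 0.87 with RARγi-1). Lactate dehydrogenase gave -0.96 and -1.68 in PK-1 cells, and -1.14 and -1.72 in Panc-1 cells. Lactate export gave 0.29 and 0.25 in PK-1 cells, and -0.79 and -1.38 in Panc-1 cells.

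**Figure D4:**
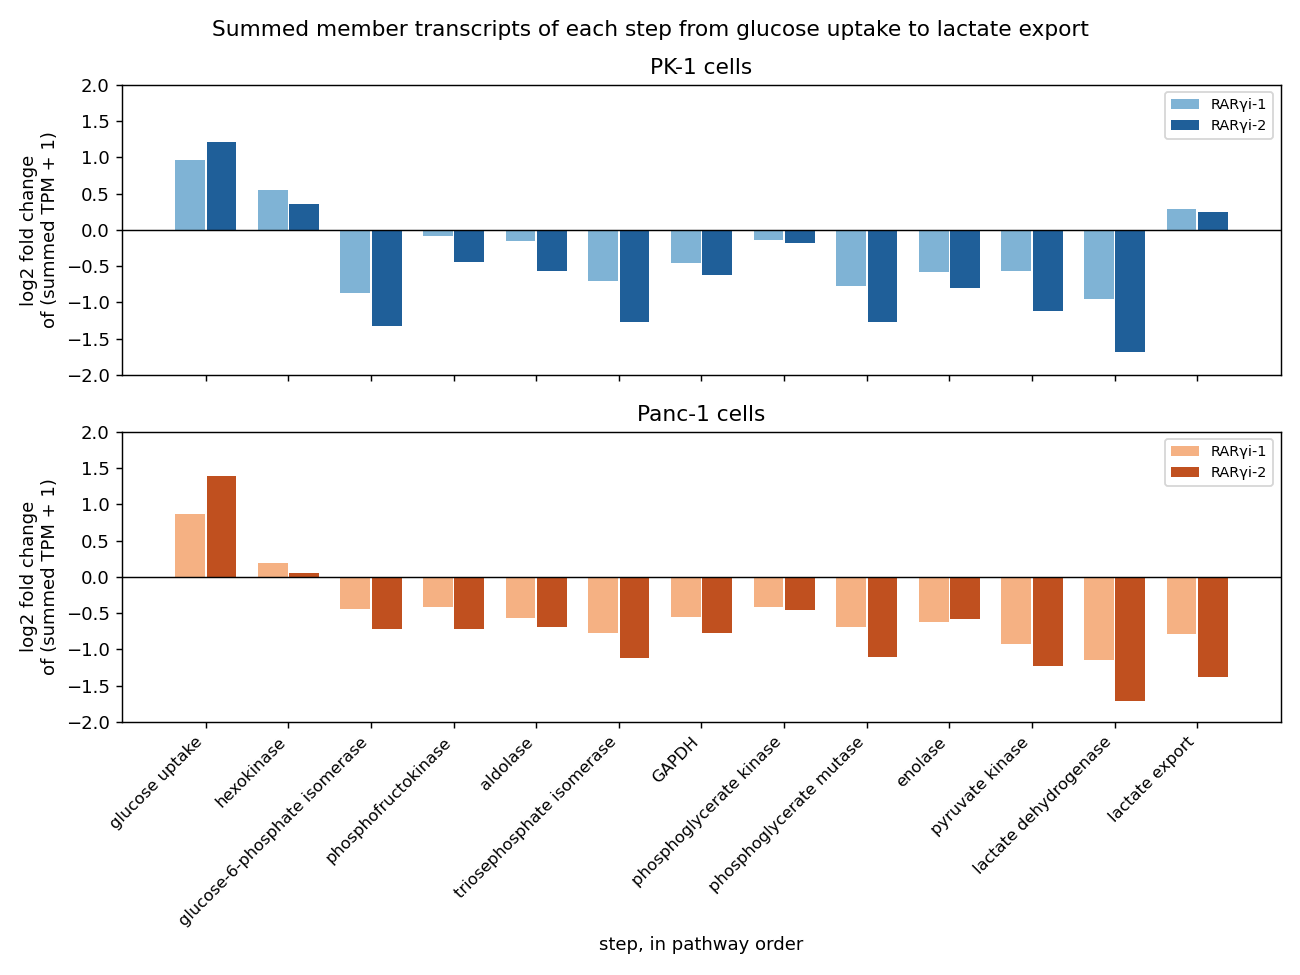
Log2 fold change of (summed TPM + 1) against control (y axis) for the members of each step in pathway order (x axis), in PK-1 (top) and Panc-1 (bottom); each bar is 1 treated library against 1 control library and no error can be drawn. Glucose uptake and hexokinase lie above 0 and the steps from GPI to lactate dehydrogenase below 0 in both lines, while lactate export lies on opposite sides of 0.

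Pyruvate dehydrogenase kinases (PDK) keep pyruvate out of the mitochondria, and PFKFB enzymes set the level of fructose 2,6-bisphosphate, the activator of phosphofructokinase. PDK1, the HIF-induced kinase, stayed within 2-fold (from -0.03 to 0.64) at levels between 3.97 and 6.80 TPM. PDK2 was at 13.0, 18.3 and 15.9 TPM in PK-1 (0.46 and 0.27). In Panc-1 it was at 16.3, 9.60 and 6.86 TPM and fell with RARγi-2 (-1.14, with -0.71 for RARγi-1). PDK3 was at the floor in PK-1 and at 2.59 TPM or less in Panc-1. PFKFB3 was at 37.0, 28.6 and 27.4 TPM in PK-1 (-0.36 and -0.42) and at 15.6, 11.7 and 7.25 TPM in Panc-1, where it fell with RARγi-2 (-1.01, with -0.39 for RARγi-1). A pseudocount of 5 TPM put the Panc-1 RARγi-2 values of PDK2 and PFKFB3 under 2-fold (-0.84 and -0.75). PFKFB4, another HIF target of the family, stayed within 2-fold (from -0.18 to 0.73).

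HIF1A, the oxygen-sensitive subunit of HIF-1, stayed within 2-fold at the transcript level. It was at 241.5, 252 and 128 TPM in PK-1 and at 26.7, 31.2 and 14.4 TPM in Panc-1, which gave -0.92 and -0.85 with RARγi-2. With RARγi-1 the values were 0.06 and 0.21, within the fold change spread, and the first turned to -0.06 after rescaling. HIF is known to be governed mainly through protein stability, which these libraries do not measure. EPAS1, the α subunit of HIF-2, stayed within 2-fold (from 0.13 to 0.36). The prolyl hydroxylase EGLN1 (PHD2) was lower in all 4 comparisons but within 2-fold (between -0.57 and -0.36). EGLN3 (PHD3), itself a HIF target, was at 4.14, 9.87 and 11.8 TPM in PK-1, where it rose with both inhibitors (1.08 and 1.32), and at the floor in Panc-1. Both values were under 2-fold with a pseudocount of 5 TPM (0.70 and 0.88).

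The other HIF targets held the greatest changes of the list. NDRG1, a stress-response gene strongly induced by hypoxia and by iron loss, was at 34.1 TPM in control PK-1 cells, 384 TPM after RARγi-1 and 544 TPM after RARγi-2. Panc-1 cells had it at 13.1, 56.9 and 99.9 TPM. NDRG1 rose in all 4 comparisons (3.46 and 3.96 in PK-1, 2.04 and 2.84 in Panc-1), which as plain TPM ratios were 11.3, 16.0, 4.34 and 7.63. Its mean log2 fold change of 3.07 was exceeded by 29 of the 9912 entries expressed in both lines. VEGFA, the growth factor that drives new vessels, was at 42.6, 274 and 229 TPM in PK-1 and at 29.7, 164 and 133 TPM in Panc-1. It rose in all 4 comparisons (2.66 and 2.40 in PK-1, 2.42 and 2.13 in Panc-1). Its mean of 2.40 was exceeded by 70 entries.

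P4HA2, a subunit of the collagen prolyl 4-hydroxylase, was at 50.5, 114 and 155 TPM in PK-1 and at 32.9, 75.4 and 89.6 TPM in Panc-1. It rose in all 4 comparisons (1.16 and 1.60 in PK-1, 1.17 and 1.42 in Panc-1). Its antisense neighbor P4HA2-AS1 was at 2.93, 7.65 and 11.2 TPM in PK-1 and at 3.95, 10.7 and 7.96 TPM in Panc-1. The library kit was strand-specific, but whether the counting used the strand is not stated, so reads of this pair cannot be told apart here. P4HA1, another catalytic subunit of this family, stayed within 2-fold (0.73 and 0.36 in PK-1, -0.27 and -0.65 in Panc-1).

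**Figure D5:**
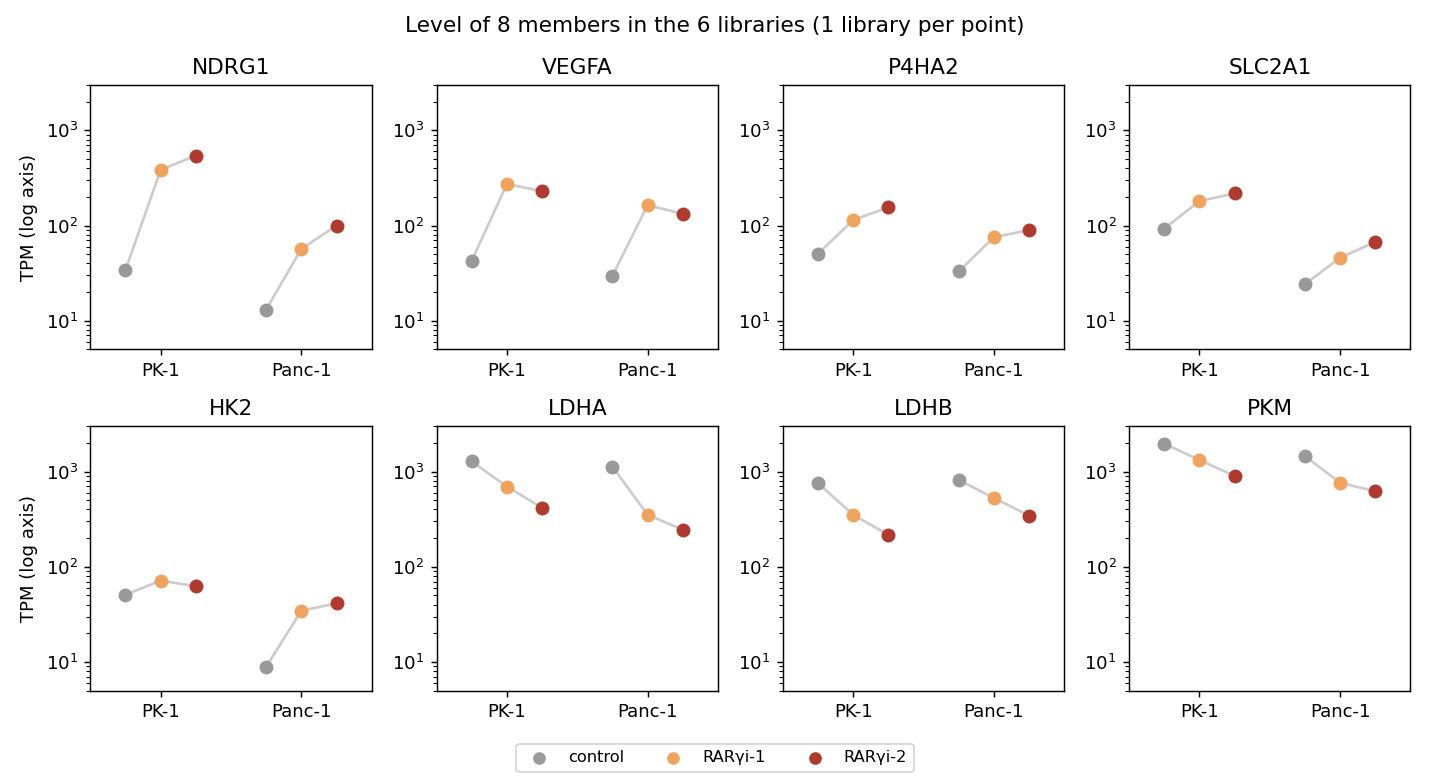
TPM (log y axis) of 8 genes in the 6 libraries, with each line's control, RARγi-1 and RARγi-2 library as 1 point each, joined by grey lines. NDRG1, VEGFA, P4HA2, SLC2A1 and HK2 lie above control in every treated library, and LDHA, LDHB and PKM below it.

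The remaining HIF targets stayed within 2-fold, passed it in part of the comparisons or were at the floor. CA9, the carbonic anhydrase widely used as a hypoxia marker, was at the floor in all 6 libraries. BNIP3, a mitophagy receptor, was at the floor in all PK-1 libraries, whereas in Panc-1 it was at 102, 171 and 199 TPM (0.74 and 0.96, within 2-fold but past the fold change spread). Its relative BNIP3L stayed within 2-fold (0.71 and 0.91 in PK-1, 0.27 and 0.24 in Panc-1), as did the histone demethylase KDM3A (0.70 and 0.95 in PK-1, 0.44 and 0.58 in Panc-1). Both were higher than control in all 4 comparisons, KDM3A past the fold change spread in each and BNIP3L in PK-1. ADM, which encodes the vasodilator adrenomedullin, was at 84.3, 75.7 and 105.6 TPM in PK-1 (-0.15 and 0.32). In Panc-1 it was at 191, 76.9 and 97.4 TPM and fell with RARγi-1 (-1.30, with -0.97 for RARγi-2). Among the genes grouped here as HIF response, ADM was the only one past 2-fold downward. Many glycolytic genes are known HIF targets as well and were counted with the glycolysis genes, among which LDHA and others fell.

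ANKRD37, a small ankyrin-repeat gene known as a HIF target, was low throughout. It was at the floor in control PK-1 cells, at 2.01 TPM with RARγi-1 and at 5.14 TPM with RARγi-2, and in Panc-1 at 2.55, 1.78 and 6.69 TPM. It rose with RARγi-2 in both lines (at least 1.62 in PK-1, where the control is at the floor, and 1.12 in Panc-1), with 0.59 and -0.35 for RARγi-1. MXI1, a MAX-binding antagonist of MYC, was at 5.89, 11.2 and 5.39 TPM in PK-1 and at 6.78, 17.5 and 6.69 TPM in Panc-1. It rose with RARγi-1 in Panc-1 (1.25), was at 0.83 with RARγi-1 in PK-1, and gave -0.11 and -0.02 with RARγi-2. With a pseudocount of 5 TPM, ANKRD37 gave 0.76 and 0.63 with RARγi-2 and MXI1 gave 0.93 in Panc-1 with RARγi-1, all under 2-fold. Its RARγi-1 libraries were therefore the high ones in both lines, while for ANKRD37 the RARγi-2 libraries were. Since the doses are not stated, the inhibitors are set side by side only.

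The lines differed before treatment as well. Between the 2 control libraries, 30 of the 41 members were within 2-fold, 8 were higher in PK-1 (SLC2A1, SLC2A3, HK2, ALDOC, PFKFB3, HIF1A, EGLN3 and NDRG1) and 3 were higher in Panc-1 (ENO2, BNIP3 and ADM). HIF1A stood at 241.5 TPM in PK-1 cells and 26.7 TPM in Panc-1 cells, a ratio of 9.04. HK2 and SLC2A1 were 5.70 and 3.83 times as high in PK-1. The glycolytic order was alike, with GAPDH, PKM and ENO1 as the 3 most abundant members in both lines.

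Many glycolytic genes have processed copies in the genome. The tables list 154 such entries for 17 members, of which 2 lay above the floor, the highest being PGAM4 at 1.81 TPM. How reads shared between a gene and its copies were assigned is not stated. Of 7 antisense entries next to 6 members, 5 lay above the floor, the highest being P4HA2-AS1.

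Further genes of the same pathways were counted in the same way. Of 24 further glycolysis genes, 16 were expressed in PK-1 cells and 14 in Panc-1 cells. In PK-1, 2 rose and 0 fell with RARγi-1 and 2 rose and 2 fell with RARγi-2, and in Panc-1, 3 rose with each inhibitor and 0 and 1 fell. The rising share was 12.5% with each inhibitor in PK-1, beside 10.7% and 13.9% of all expressed entries, and 21.4% in Panc-1, beside 8.58% and 9.88%. The falling share was 0% and 12.5% in PK-1, beside 5.67% and 14.6%, and 0% and 7.14% in Panc-1, beside 7.11% and 13.0%. Among those with 5 TPM in the control library, 1 of 14 rose with each inhibitor in PK-1 and 0 of 11 in Panc-1. HKDC1, a hexokinase-like enzyme, was at 1.01, 6.84 and 10.5 TPM in PK-1 and at the floor, 13.6 and 18.3 TPM in Panc-1, and it rose in all 4 comparisons (1.97 and 2.52 in PK-1, at least 2.87 and 3.27 in Panc-1). SLC2A10, another facilitative transporter, was at 12.3, 59.3 and 61.0 TPM in PK-1 and at the floor, 5.80 and 5.64 TPM in Panc-1 (2.18 and 2.22, and at least 1.77 and 1.73). HKDC1 in both lines, and SLC2A10 and ARRDC4, the other genes that rose in Panc-1, reached the minimum only in treated libraries there. The median of this list lay between -0.02 and 0.23.

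The pentose phosphate pathway draws glucose 6-phosphate off glycolysis to make NADPH and ribose. Of its 11 genes, 10 were expressed in each line. In PK-1, 2 rose and 2 fell with RARγi-1 and 2 rose and 3 fell with RARγi-2, and in Panc-1, 1 rose and 1 fell, and 1 rose and 3 fell. Of the 2 in PK-1, H6PD reached the minimum only in treated libraries. PRPS2, which makes the activated ribose of nucleotides, was at 52.4, 20.9 and 12.2 TPM in PK-1 and at 35.6, 19.0 and 10.7 TPM in Panc-1 (-1.28 and -2.02, -0.87 and -1.65). PGD, the second NADPH-producing dehydrogenase, was at 265, 606 and 642.5 TPM in PK-1 and at 189, 436 and 483 TPM in Panc-1, and it rose in all 4 comparisons (1.19 and 1.28, 1.20 and 1.35). RPIA, the ribose phosphate isomerase, was at 52.2, 23.9 and 11.6 TPM in PK-1 and at 35.8, 25.0 and 17.3 TPM in Panc-1 (-1.10 and -2.08, -0.50 and -1.01). PRPS1, the relative of PRPS2, fell in 3 comparisons as well.

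Among 11 genes of pyruvate entry into mitochondria, 10 were expressed in each line and 1 passed 2-fold, with 0 that fell. This was MPC1, a subunit of the mitochondrial pyruvate carrier, chosen for naming after its values were seen. It was at 23.4, 39.8 and 81.0 TPM in PK-1 and at 15.5, 31.8 and 48.7 TPM in Panc-1, and it rose with RARγi-2 in both lines (1.75 and 1.59, with 0.74 and 0.99 for RARγi-1). Of 7 gluconeogenesis genes, 3 were expressed in each line. PCK2, the mitochondrial phosphoenolpyruvate carboxykinase and a known ATF4 target, was at 21.1, 103 and 115 TPM in PK-1 and at 23.6, 130.4 and 108 TPM in Panc-1. PCK2 rose in all 4 comparisons (2.23 and 2.39, 2.42 and 2.15).

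HIF pathway regulators are represented by 15 further genes, among them ARNT, VHL and their partners. In each line 13 were expressed, of which 1 and 1 rose in PK-1 cells, and 3 and 2 in Panc-1 cells, with RARγi-1 and RARγi-2 in turn, and 0 fell. The rising share was 7.69% with each inhibitor in PK-1, beside 10.7% and 13.9% of all expressed entries. In Panc-1 it was 23.1% and 15.4%, beside 8.58% and 9.88%. SIAH1, a ubiquitin ligase that acts on prolyl hydroxylases, was at 27.4, 78.7 and 115 TPM in PK-1 and at 13.2, 30.7 and 37.6 TPM in Panc-1, and it rose in all 4 comparisons (1.49 and 2.03, 1.16 and 1.45). The median of this list lay between -0.09 and 0.13.

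A list of 33 further HIF targets held more rising than falling genes in each comparison. In PK-1, 28 were expressed, 11 rose and 2 fell with RARγi-1, and 12 rose and 4 fell with RARγi-2. In Panc-1, 24 were expressed, and 7 rose and 4 fell with each inhibitor. The rising share was 39.3% and 42.9% in PK-1, beside 10.7% and 13.9% of all expressed entries. In Panc-1 it was 29.2% with each inhibitor, beside 8.58% and 9.88%. The falling share was 7.14% and 14.3% in PK-1, beside 5.67% and 14.6%, and 16.7% in Panc-1, beside 7.11% and 13.0%. CA12, LOX, KDM4B, KDM4C, VLDLR and CCNG2 in PK-1, and LOX in Panc-1, reached 5 TPM only in treated libraries. Among the 22 with 5 TPM in the PK-1 control, 7 rose with each inhibitor, and among the 23 in Panc-1, 7 and 6 rose. The counts of falling genes did not differ. The medians were 0.88 and 0.83 in PK-1 cells, and 0.03 and 0.19 in Panc-1 cells. Of those expressed in both lines and past 2-fold in at least 3 comparisons, the greatest mean changes were in HMOX1, DDIT4 and LOXL2. HMOX1, the heme oxygenase also known as a target of NRF2, was at 17.8, 142 and 339 TPM in PK-1 and at 113, 6518 and 8126 TPM in Panc-1 (2.93 and 4.18, 5.84 and 6.16). DDIT4, an inhibitor of mTORC1 also known as an ATF4 target, was at 414.5, 1793 and 1712 TPM in PK-1 and at 118, 1406 and 1056.5 TPM in Panc-1 (2.11 and 2.04, 3.56 and 3.15). LOXL2, a lysyl oxidase of the matrix, fell in all 4 comparisons (-1.21 and -1.76, -1.02 and -1.70) from 14.5 TPM in control PK-1 cells and 74.9 TPM in control Panc-1 cells. CCNG2, an atypical cyclin that reached 5 TPM in PK-1 only, was at 3.59, 18.6 and 15.7 TPM there (2.10 and 1.86). In Panc-1 it was just under that minimum, at 1.70, 4.90 and 3.91 TPM (1.12 and 0.86). The targets that rose and those that fell were thus found side by side in the same libraries.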

How the data were processed

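RNA libraries of PK-1 and Panc-1 cells were made with a strand-specific mRNA kit, 1 per condition. The log2 TPM values that the authors deposited never lie under 0, so a value of 0 marks any level up to 1 TPM, the floor. The submitters' processing notes name hg38; the aligner, counter and annotation are not given in the sources used here. Per library, between 13149 and 13652 of 53826 entries lay above the floor.

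The log2 values were converted to TPM, and a pseudocount of 1 TPM was added before the ratio to the control was taken, which understates changes of low genes. Libraries were assigned by title. An entry was counted in a line if any of its 3 libraries reached 5 TPM, and 2-fold was the threshold. With 1 library per condition no test was made. Members and lists were chosen with earlier results of these data known. All 41 members were followed, with values in all 6 libraries for those past 2-fold in at least 1 comparison; of each of 6 further lists, up to 3 genes past 2-fold in at least 3 comparisons with the greatest mean change were named, and MPC1, PRPS1, CCNG2, ARRDC4, H6PD, CA12, LOX, KDM4B, KDM4C, VLDLR and P4HA2-AS1 were named after their values were seen. Markers and promoters were read from fixed lists and from RefSeq. Alternatives were other pseudocounts, minimums and thresholds, rescaling by median ratios, and summing repeated symbols. The scripts (Python 3.11.15, numpy 2.4.6, pandas 2.3.3, matplotlib 3.10.9) were tested on simulated data.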

Additional observations from a re-analysis of the deposited data

Results flagged for a closer look

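For 4 members both treated libraries lay above control in PK-1 and below control in Panc-1. The difference between the lines was not tested, since each condition has 1 library, and for none of the 4 did all fold changes lie past the fold change spread. For SLC16A3 the mean log2 fold change over the inhibitors was 0.35 in PK-1 and -1.18 in Panc-1, a difference of 1.52. PDK2 had means of 0.36 and -0.92, a difference of 1.28. P4HA1 had means of 0.54 and -0.46, a difference of 1.0. HK1 had means of 0.48 and -0.31, a difference of 0.79.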

How the results depend on the processing

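No paired analysis within a line was possible because each condition has 1 library, and a fit over both lines with the line as a block was not run. No value changed direction under any alternative run on the counts, the medians and the 22 members past 2-fold. With a threshold of 1.5-fold, 13 members rose and 7 fell in PK-1 with RARγi-1, 11 fell in PK-1 with RARγi-2, 10 fell in Panc-1 with RARγi-1 and 17 fell in Panc-1 with RARγi-2. Only the 5 counts that grew by more than a factor of 1.5 are listed. The 3 rising counts left out were also higher than at 2-fold, by at least 2 members each. With a threshold of 3-fold, 3 rose and 0 fell, 4 rose and 3 fell, 3 rose and 1 fell, and 3 rose and 2 fell, in the order PK-1 RARγi-1, PK-1 RARγi-2, Panc-1 RARγi-1 and Panc-1 RARγi-2. The shares of all expressed entries past 1.5-fold and 3-fold were not computed, so these counts cannot be set against them. A pseudocount of 5 TPM left 5 rising members in PK-1 with RARγi-2, and over all comparisons 11 of the 88 single fold changes dropped under 2-fold: both of SLC2A3 and EGLN3 in PK-1 and of ALDOC in Panc-1, ANKRD37 with RARγi-2 in both lines, and in Panc-1 MXI1 with RARγi-1 and PDK2 and PFKFB3 with RARγi-2. Counting only members with 5 TPM in the control library, chosen after seeing the data, also left 5 there and gave a median of 0.36 for the HIF response genes. Without a pseudocount 1 of the 88 single fold changes newly passed 2-fold, that of ANKRD37 in PK-1 with RARγi-1 (at least 1.01). KDM3A, which is not among the 22 members, passed it as well in PK-1 with RARγi-2 (1.01). After rescaling 2 of the 88 were lost and 1 was gained. Summing repeated symbols changed nothing, as no member's symbol is repeated. Depth is unknown, so the precision of genes under about 5 TPM, such as ANKRD37, cannot be given.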
